A study of Mus musculus with 4 samples.

Results

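The core pluripotency factors described here are 10 mouse genes: Pou5f1, Sox2, Nanog, Sall4, Utf1, Lin28a, Dppa2, Dppa4, Dppa5a and L1td1. They were chosen by name, and every array probe assigned to a RefSeq transcript of a member was used. This gave 11 probes for 9 of the 10 genes, out of 41174 probes on the array. Sall4 and Dppa5a were each read by 2 probes and the other 7 genes by 1 probe each, while no probe was matched to L1td1 and it has no value here.

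The samples were mouse embryonic stem (ES) cells engineered so that FBL is knocked down when tetracycline (Tc) is withdrawn. FBL is fibrillarin, the nucleolar enzyme that methylates ribosomal RNA. The control group (2 samples) was grown with Tc at 1000 ng/mL and expressed FBL. The FBL-knock down group (2 samples) was grown without Tc. Both groups were the same Tc-inducible cells and were kept for 2 days on gelatin with leukaemia inhibitory factor (LIF), the cytokine that holds mouse ES cells undifferentiated. Loss of FBL and absence of Tc therefore coincided in the design and cannot be told apart. The labels name no clone, no promoter behind the Tc system and no separate cultures, so the p-values rest on how far these arrays differ, a spread that could be technical. In total RNA from a whole culture, fewer cells of a type and less RNA per cell cannot be told apart.

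OCT4 (encoded by Pou5f1) and SOX2 bind DNA side by side at composite sites, and with NANOG they hold one another and much of the ES cell programme active. SALL4 and UTF1 are chromatin-bound partners of this circuit. LIN28A and L1TD1 are RNA-binding proteins of the undifferentiated state, and the DPPA proteins are markers of pluripotent cells, of which DPPA2 and DPPA4 act together on chromatin. The comparison asks whether the messenger RNA of these factors differed after 2 days of FBL knock-down while LIF was still present.

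Promoter sequence was at hand for 6 of the 10 members in the RefSeq windows of build GRCm38.p6, which run from 250 bases before to 50 after an annotated start. The 120 bases before the first annotated start are shown for the 3 central factors and for Lin28a, because Nanog and Lin28a had the largest differences below and Pou5f1 and Sox2 are the factors whose binding letters were searched. Capitals mark the OCT site ATGCAAA, the SOX site CATTGT, their composite (the SOX letters, 1 base of any kind, then the OCT letters) and GGGCGG (a GC box), each on either strand, and the single sites lie within the composite. The stretches are chr17:35505912-35506031 (+) for Pou5f1, chr3:34649875-34649994 (+) for Sox2, chr6:122707369-122707488 (+) for Nanog and chr4:134018817-134018936 (-) for Lin28a.
Pou5f1: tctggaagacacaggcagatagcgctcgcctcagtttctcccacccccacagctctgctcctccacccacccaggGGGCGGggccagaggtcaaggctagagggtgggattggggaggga
Sox2: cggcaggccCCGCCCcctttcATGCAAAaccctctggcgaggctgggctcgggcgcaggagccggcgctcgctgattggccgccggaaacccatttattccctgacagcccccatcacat
Nanog: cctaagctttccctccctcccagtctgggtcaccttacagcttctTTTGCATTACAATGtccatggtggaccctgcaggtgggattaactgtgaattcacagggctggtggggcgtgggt
Lin28a: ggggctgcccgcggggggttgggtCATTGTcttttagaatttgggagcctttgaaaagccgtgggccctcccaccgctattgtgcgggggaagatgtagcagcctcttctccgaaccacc

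The composite letters stood on the minus strand of the Nanog promoter, 75 bases before the first annotated start. They were chosen with this well-known Nanog element in mind. Among 32851 windows of the same length they occurred in 2 (0.00609%), and both windows belong to Nanog, for its 2 annotated starts. The OCT letters alone occurred in 4.63% of the windows, and in Sox2 they lay 99 bases before the start. The SOX letters alone occurred in 12.6% and in Lin28a lay 96 bases before the start. The GC box occurred in 35.7% and in Pou5f1 lay 45 bases before the start. These matches describe the letters only and show no binding in these samples.

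Fbl RNA, the target, was lower in both knock-down samples. The Fbl probe read 8.63 and 8.12 in control 1 and 2, and 5.98 and 5.94 after knock-down, as log2 signal with the 75th percentile of each array set to 0. All levels below are on this scale, where 1 unit is a 2-fold difference. The fall was 5.32-fold, or −2.41 ± 0.25 (SE) in log2 units with 2 arrays in each group (adjusted p = 5.48e-04 in limma).

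Each array had 24491 to 26397 probes well above background, and 25088 probes were tested because they were so on both arrays of at least 1 group. Of these, 6.08% passed an adjusted p of 0.05 in limma, 917 higher and 608 lower in the knock-down. The number called (1525) was 5321 without control 1, 3215 without control 2, 942 without knock-down 1 and 680 without knock-down 2. Knock-down 2 was the only array on slide 2, so the last value is also the fit within slide 1. The 10 listed markers of undifferentiated ES cells, members excluded, had probes for 9 genes, all well above background on all 4 arrays. Their summed level was 8.60 and 8.67 in control 1 and 2, and 8.35 and 8.34 with FBL knocked down. The sum adds linear signal over all probes of the list, so bright genes such as Zfp42, read by 2 probes, lead it. Among the 9 genes, by their brightest probe, 5 were lower and the rest higher, with a median change of −0.10. None of them passed in limma.

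None of the 11 member probes passed in limma, against 6.08% of all probes tested. At an unadjusted p under 0.05, 2 of 11 did, Nanog and Lin28a, both lower, against 20.0% of all probes in either direction and 10.5% in the lower direction. All 11 probes were well above background on all 4 arrays and were tested. Their log2 changes ran from −0.82 to 0.29 with a median of −0.08, beside a median of −0.06 over all probes. No tested probe was called with a change smaller than 0.86, and that limit lay outside the changes of all 11 member probes. The 2 groups did not overlap for 5 of the 11 probes, where 51.4% of all probes have groups that do not overlap. These were Nanog, Lin28a, Dppa2 and Dppa4, lower in both knock-down samples (30.6% of all probes are), and Sox2, higher in both (20.8%).

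**Figure D1:**
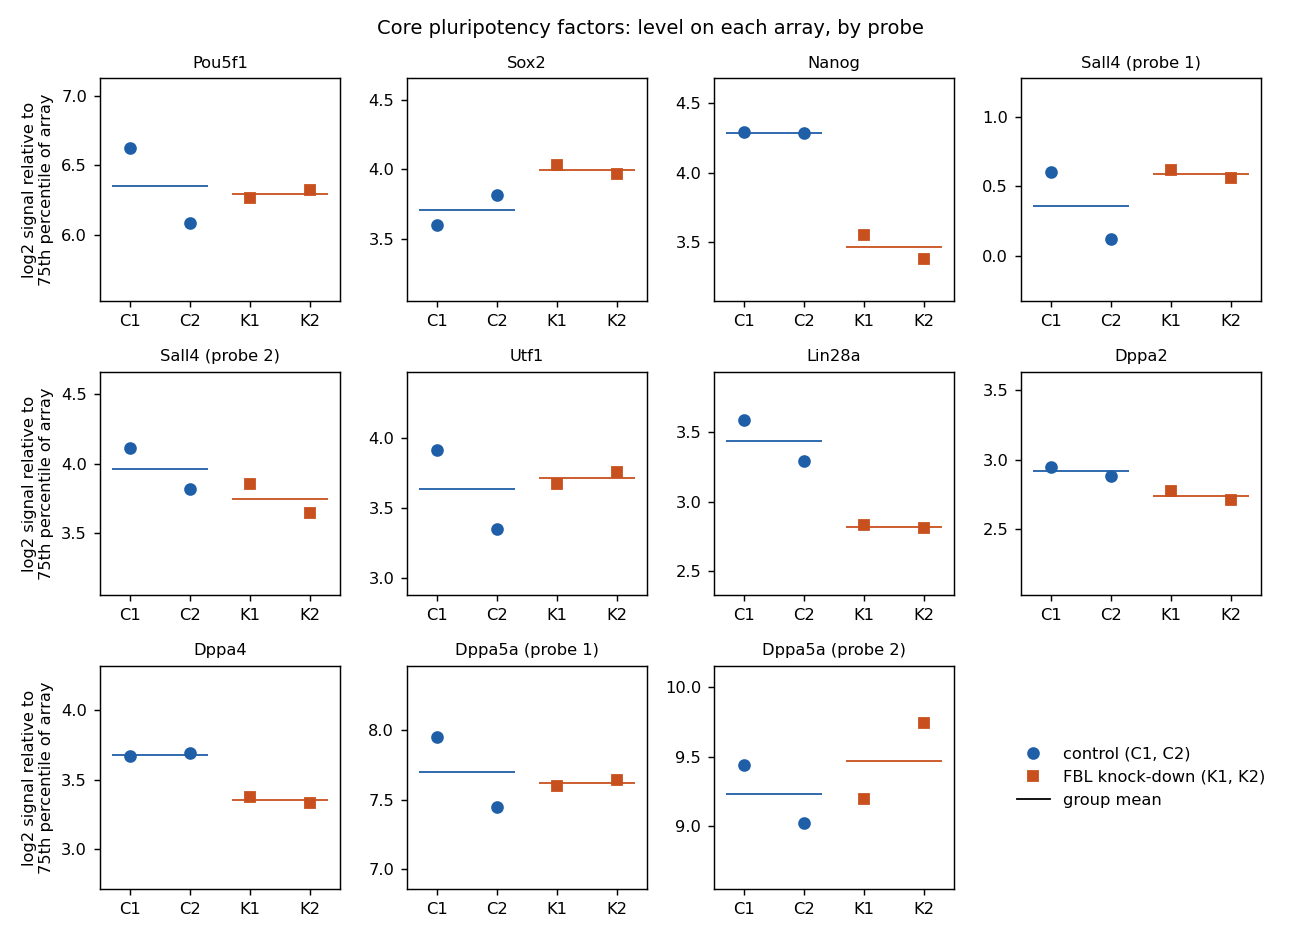
Level of each of the 11 member probes on each array, in log2 units above the 75th percentile of that array (vertical axis, every panel spanning the same range), for controls (C1, C2, circles) and FBL-knock down samples (K1, K2, squares), with lines at group means. Nanog, at 4.29 in both controls, is lower in both knock-down samples, while the controls of Pou5f1, Utf1 and the first Dppa5a probe lie on both sides of the knock-down values.

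Pou5f1, which encodes OCT4, the POU-domain factor without which no pluripotent cells form, read 6.62 and 6.08 in control 1 and 2, and 6.26 and 6.32 in the FBL-depleted samples. Both knock-down values lay between the control values. The log2 change was −0.06 ± 0.25 SE, with a 95% interval from −0.62 to 0.50, which as a ratio of knock-down to control runs from 0.649 to 1.42 (limma adjusted p = 0.928). A fall of 2-fold or a rise of 2-fold lies outside that interval, and smaller differences lie inside it.

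Sox2, the HMG-box partner of OCT4, read 3.60 and 3.81 in control 1 and 2, and 4.03 and 3.96 after knock-down. Both knock-down values were above both control values, by less than the controls differed from each other at the nearest pair. The change was 0.29 ± 0.23 SE, with a 95% interval from −0.21 to 0.79 (limma adjusted p = 0.538). It was positive in all 16 alternative settings, from 0.17 to 0.40, and passed in none of them.

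Nanog, the homeodomain factor whose level varies between ES cells in culture, read 4.29 and 4.29 in control 1 and 2, and 3.55 and 3.38 with FBL knocked down. The controls differed by less than 0.01 and both knock-down samples were lower, at 1.66-fold between the nearest pair. The change was −0.82 ± 0.22 SE, or 1.77-fold lower, with a 95% interval from −1.32 to −0.32 (limma unadjusted p = 0.00439, adjusted p = 0.0624). It lay at the 4.39 percentile of the changes of all probes tested. The value kept its direction in all 16 alternatives, from −0.91 to −0.74, and passed in 6 of them. These were normexp background correction (adjusted p = 0.0209), testing only probes well above background on all arrays (0.0350), a variance prior with trend (0.0149), trend and robust (0.00458), and the fits without control 1 (0.0340) and without control 2 (0.0410), whose spread comes solely from the 2 knock-down arrays. Under normexp, limma used 1 variance for all probes, so that result does not rest on the spread of Nanog itself. Within slide 1 the change was −0.74 and without knock-down 1 it was −0.91, also with 1 variance for all probes, and neither passed.

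**Figure D2:**
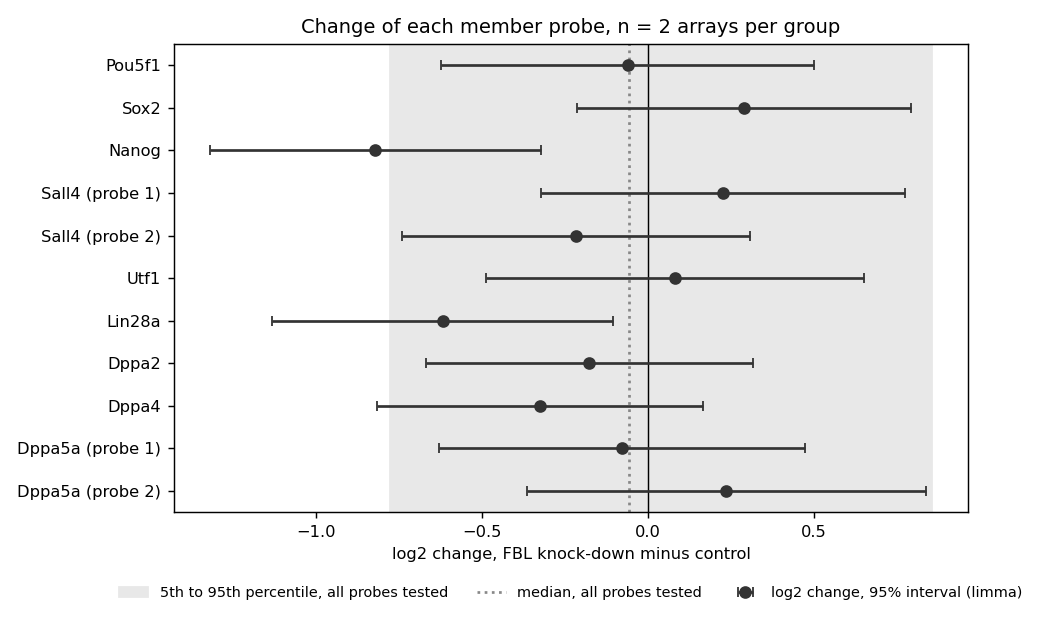
Log2 change of each member probe, FBL-knock down minus control, with its 95% interval from limma (horizontal axis), against the 5th to 95th percentile (band) and the median (dotted line) of all 25088 probes tested. The intervals of Nanog and Lin28a leave out 0, those of the other 9 probes include it, and the Nanog point alone lies below the band.

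Sall4, a zinc-finger factor that helps keep Pou5f1 active, was read by 2 probes whose changes had opposite signs and were smaller than their errors. The probe assigned to transcript NM_175303 read 4.11 and 3.81 in control 1 and 2, and 3.85 and 3.64 in the FBL-depleted samples (change −0.22 ± 0.23 SE, limma adjusted p = 0.677). The probe assigned to NM_201395 read 0.60 and 0.12 in control 1 and 2, and 0.62 and 0.56 after knock-down (0.23 ± 0.25 SE, adjusted p = 0.678). Groups overlapped on both probes. Probe sequences were not used here, so it is not shown which transcripts each probe reads.

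Utf1, a chromatin-bound target of OCT4 and SOX2, read 3.91 and 3.35 in control 1 and 2, and 3.67 and 3.76 with FBL knocked down. Both knock-down values lay between the controls, and the change was 0.08 ± 0.25 SE with a 95% interval from −0.49 to 0.65 (limma adjusted p = 0.903). The Utf1 controls lay further apart (0.56) than those of any other member probe.

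Lin28a, whose protein binds let-7 microRNA precursors and blocks their maturation, read 3.59 and 3.29 in control 1 and 2, and 2.83 and 2.81 in the FBL-depleted samples. Both knock-down samples were lower than both controls, by 1.37-fold between the nearest pair. The change was −0.62 ± 0.23 SE, or 1.54-fold lower, with a 95% interval from −1.13 to −0.10 (limma unadjusted p = 0.0232, adjusted p = 0.167). It lay at the 8.37 percentile of all probes tested. The direction held in all 16 alternatives, from −0.77 to −0.47, and the threshold was passed in 2 of them, with trend and robust (adjusted p = 0.0499) and without control 2 (−0.77, 0.0367). Without control 1 the change was −0.47 (0.0643), and within slide 1 it was −0.61 and did not pass.

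**Figure D3:**
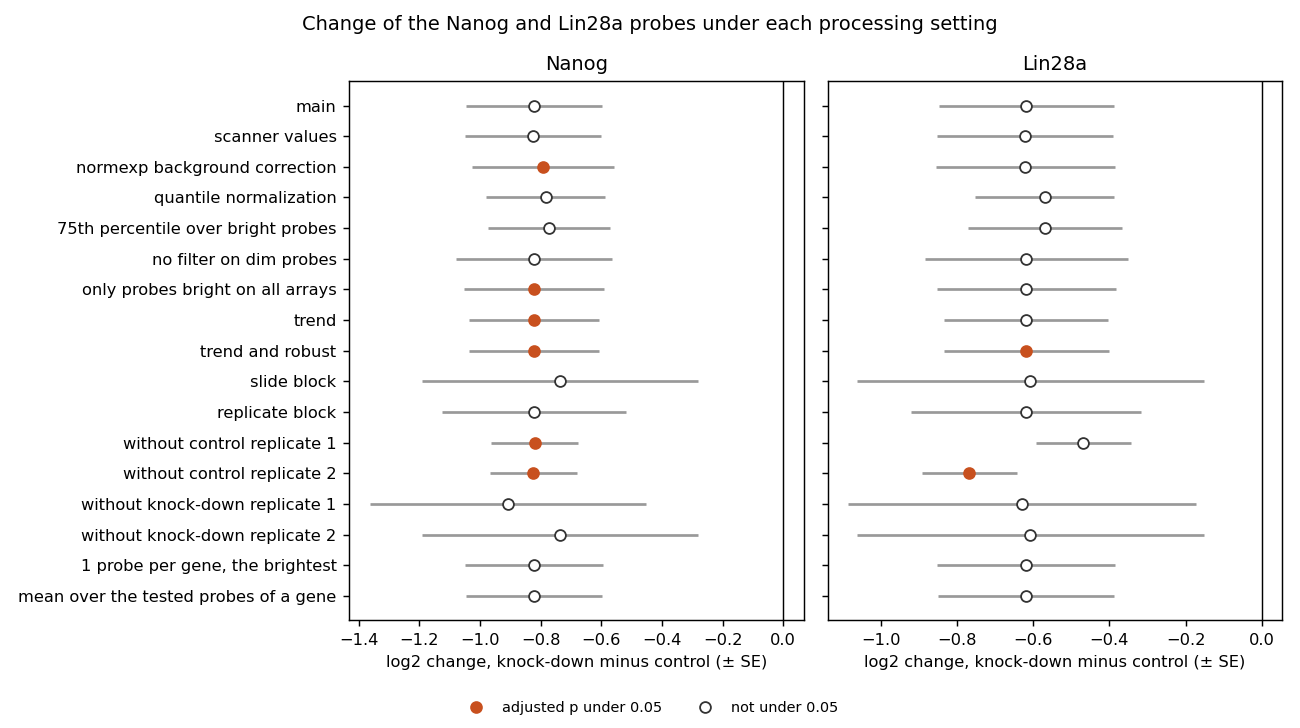
Log2 change (± SE) of the Nanog probe (left) and the Lin28a probe (right), FBL-knock down minus control, under the main setting and each of 16 alternatives (rows); filled points have an adjusted p under 0.05 in limma. All points lie below 0, Nanog passes in 6 alternatives and Lin28a in 2.

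Other genes of the LIN28 and let-7 pathway were read by 28 tested probes for 15 of 16 listed genes. None passed in limma and 3 had an unadjusted p under 0.05, where 20.0% of all probes did. The median change was 0.01. Drosha, the nuclease that starts microRNA maturation, had a change of 0.002 and Hmga1, a chromatin protein, one of 0.13. The paralog Lin28b had changes of 0.19 and −0.16 at its 2 probes (adjusted p = 0.752 and 0.799). Igf2bp2, an RNA-binding let-7 target named after its value was seen, had the most negative change of the list at −0.85 ± 0.23 SE (adjusted p = 0.0607). The other 2 of the 3 were probes of Tut4, a uridylyltransferase that works with LIN28A on let-7 precursors, with changes of 0.75 and 0.66 (adjusted p = 0.166 and 0.199), while its remaining probes had 0.43 and 0.03.

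Dppa2 and Dppa4 lie side by side on chromosome 16 and encode SAP-domain proteins that bind chromatin as a pair. Dppa4 read 3.67 and 3.69 in control 1 and 2, and 3.37 and 3.33 after knock-down, a change of −0.32 ± 0.22 SE (95% interval −0.82 to 0.17, limma adjusted p = 0.466). Dppa2 read 2.95 and 2.88 in control 1 and 2, and 2.77 and 2.71 with FBL knocked down, a change of −0.18 ± 0.22 SE (−0.67 to 0.32, adjusted p = 0.722). On both probes both knock-down samples were the lower ones, and the 2 samples of a group lay from 0.02 to 0.06 apart. Morc1, the next gene on the far side of Dppa2, had a change of −0.55 (adjusted p = 0.219).

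Genes of the 2-cell stage that depend on DPPA2 and DPPA4 in ES cells had 5 tested probes for 3 of 8 listed genes. Of these, 4 were well above background on all 4 arrays, with changes from 0.65 to 1.20. None of the 4 passed in limma, though all had an unadjusted p under 0.05, where 20.0% of all probes did. The other, 1 of 3 for Tcstv1, was well above background in the knock-down samples alone, so it was tested only through the group where it is high. It passed, and its level there was at least 1.66-fold higher. The brightest Tcstv1 probe had a change of 0.86 ± 0.22 SE (adjusted p = 0.0508) and the brightest Tcstv3 probe one of 0.78 (0.0716). Tcstv1 and Tcstv3 are near-identical copies, so their signals may not be separate.

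Dppa5a, also known as Esg1, encodes a KH-domain RNA-binding protein abundant in ES cells and was read by 2 probes of the same transcript. The first read 7.95 and 7.45 in control 1 and 2, and 7.60 and 7.64 in the FBL-depleted samples (change −0.08 ± 0.25 SE, limma adjusted p = 0.904). The second read 9.44 and 9.02 in control 1 and 2, and 9.20 and 9.74 after knock-down (0.24 ± 0.27 SE, adjusted p = 0.694). The probes agreed on the order of the controls, while knock-down 2 was 0.55 above knock-down 1 on the second probe and 0.05 above it on the first. Processed pseudogenes of Dppa5a, Pou5f1 and Nanog exist, and their share of the signal was not tested.

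Much of the spread among the members lay between the 2 controls. Control 1 was higher than control 2 on 9 of the 11 member probes, with a median difference of −0.30 (control 2 minus control 1) and a range from −0.56 to 0.21. In the knock-down pair the median difference was −0.04. Bright probes as a whole showed the same offset, with a median of −0.36 in the brightest 2509 probes tested, which holds Pou5f1 and both Dppa5a probes, and −0.25 in the next 2509, which holds all other members except the Sall4 probe of NM_201395. In the knock-down pair these medians were 0.005 and −0.02. The offset between the controls was not confined to bright probes. Its median was −0.21 in the dimmest 2509 probes, −0.02 to 0.02 at middle levels and −0.15 over all probes. The changes were also fitted with a control left out. These fits restate the difference between the controls of a probe, so they do not separate this offset from the noise of that probe. For Pou5f1 the change was 0.21 without control 1 and −0.33 without control 2, and for Utf1 it was 0.36 and −0.20. For Nanog it was −0.82 in both fits.

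**Figure D4:**
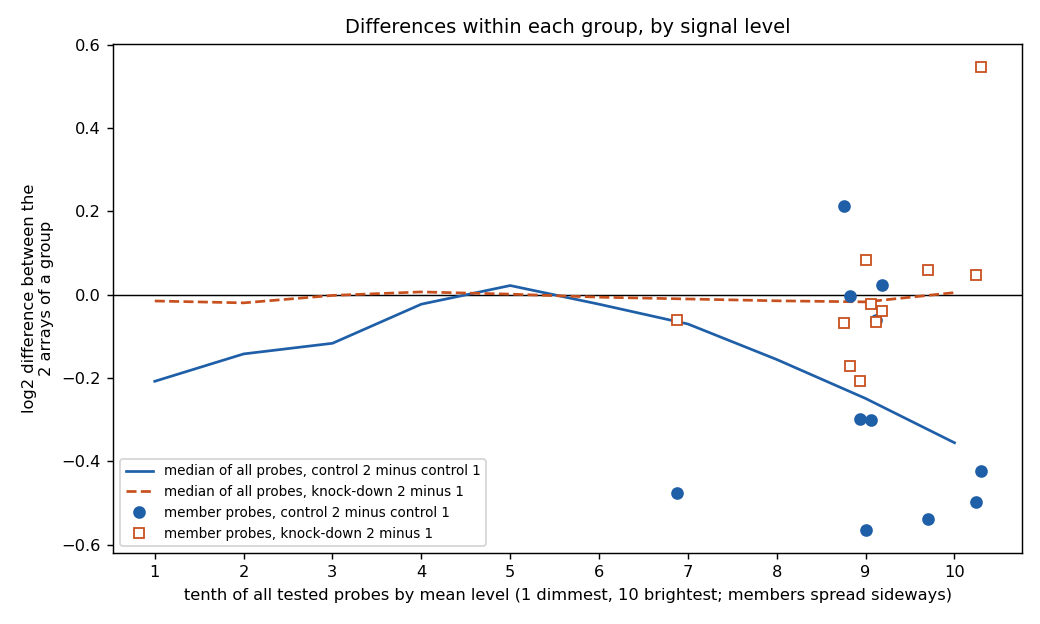
Log2 difference between the 2 arrays of a group (vertical axis) against mean level, with all tested probes cut into 10 equal steps (horizontal axis), as medians over all probes (lines) and for the 11 member probes (points). The median of control 2 minus control 1 is −0.21 among the dimmest probes, near 0 at middle levels and −0.36 among the brightest. That of the knock-down pair stays near 0. The member probes of the knock-down pair run from −0.21 (a Sall4 probe) to 0.55 (the second Dppa5a probe), with Nanog at −0.17.

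A ratio to Pou5f1 on the same array takes out any factor that the array applies to both probes alike. It also brings in the spread of the Pou5f1 probe itself, where control 2 minus control 1 was −0.54. Relative to Pou5f1, Nanog stood at −2.33 and −1.80 in control 1 and 2, and −2.71 and −2.94 with FBL knocked down, as log2 differences between the 2 probes. Lin28a stood at −3.04 and −2.80 in control 1 and 2, and −3.43 and −3.52 in the FBL-depleted samples. Both were lower in both knock-down samples, with a change against Pou5f1 of −0.76 ± 0.26 SE for Nanog (95% interval −1.47 to −0.05) and −0.56 ± 0.17 SE for Lin28a (−1.04 to −0.07). When all probes were fitted as ratios to Pou5f1, 0.00% of 25087 passed in limma and 14.9% had an unadjusted p under 0.05. The adjusted p was 0.310 for Nanog and 0.284 for Lin28a (unadjusted 0.0414 and 0.0333). The first Dppa5a probe kept its ratio to Pou5f1 between 1.32 and 1.37 on all 4 arrays. Utf1 stood at −2.71 and −2.73 in control 1 and 2, and −2.59 and −2.57 after knock-down. Its ratio was thus higher in both knock-down samples, as was that of the NM_201395 probe of Sall4. Their changes against Pou5f1 were 0.14 (95% interval −0.27 to 0.56) and 0.29 (−0.15 to 0.72). For levels, 51.4% of all probes have groups that do not overlap, and that share was not computed for ratios.

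Genes bound by OCT4, SOX2 and NANOG, or belonging to the same network, were taken from a list of 30, of which 26 had a tested probe. By the brightest probe of each gene, 6 fell, 1 rose and 19 did not pass. Over all 35 probes of these genes 7 fell and 1 rose, where 2.42% of all probes fell and 3.66% rose. Tfcp2l1 counts among the falls by more than 1 probe. The list was chosen with earlier results of these data known, so these shares are no independent test of the network. The median change was −0.34 beside −0.06 for all probes. The count of 8 called probes was 17 without control 1, 10 without control 2 and 0 without knock-down 1 or without knock-down 2, and it was 3 with quantile normalization and 4 with scaling on bright probes.

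Among these, Nr0b1 (DAX1, a nuclear receptor that binds OCT4) fell from 5.36 in both controls to 4.25 and 4.15 (−1.16 ± 0.22 SE, limma adjusted p = 0.0134). Spp1, the secreted protein osteopontin, read 6.51 and 6.80 in control 1 and 2, and 5.51 and 5.43 after knock-down and fell (−1.18 ± 0.23 SE, adjusted p = 0.0151). Tfcp2l1, a factor of the naive state, fell at 2 of its 3 probes (−0.95 and −1.21), and the third had −0.57 (adjusted p = 0.186). The remaining falls, named after their values were seen, were those of Tbx3 (−0.89), Klf5 (−0.89) and Foxd3 (−0.91), transcription factors of the same network. Lefty1, a secreted inhibitor of Nodal, rose from 4.31 and 3.78 to 5.46 and 5.36 (1.36 ± 0.25 SE, adjusted p = 0.0118). Klf4, a naive-state factor, had a change of 0.03, with all 4 values between 6.04 and 6.09.

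**Figure D5:**
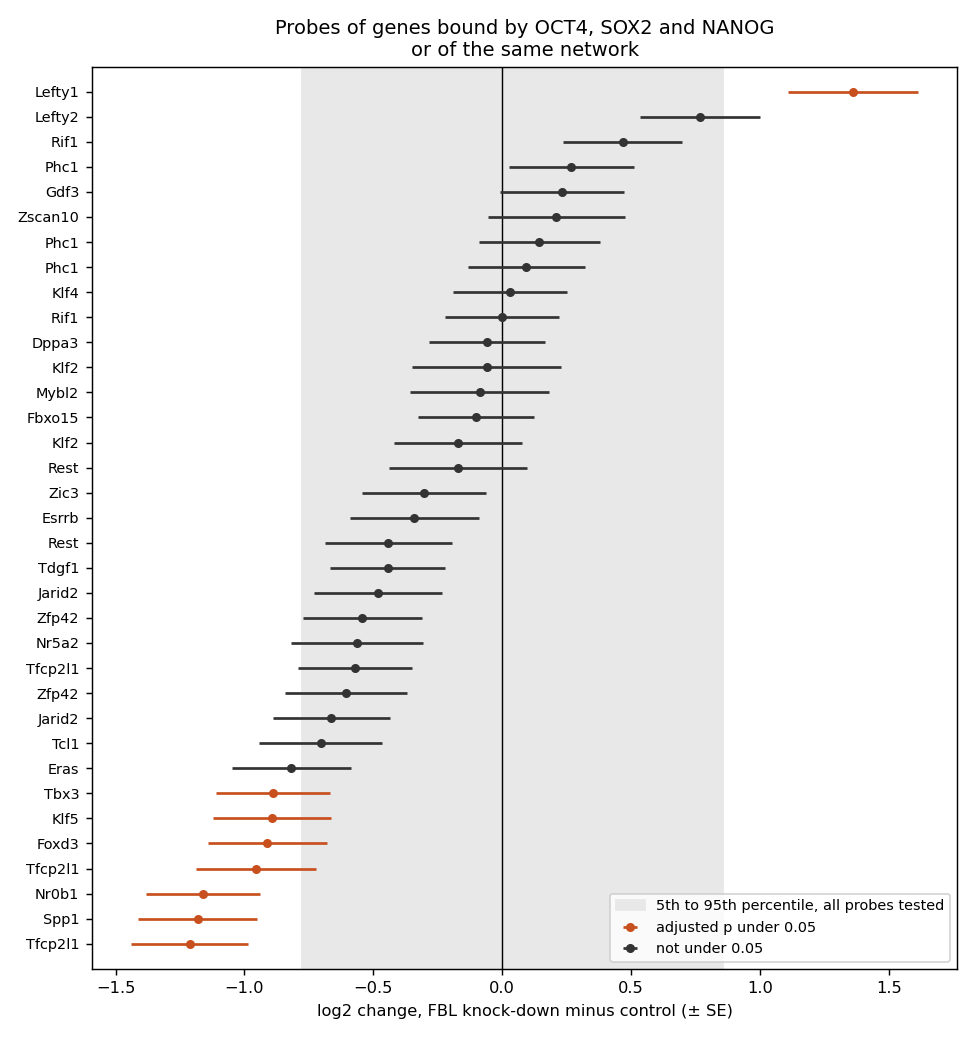
Log2 change (± SE), FBL-knock down minus control, of the 35 tested probes of 26 genes bound by OCT4, SOX2 and NANOG or of their network (rows, sorted), with the 5th to 95th percentile of all probes as a band. Coloured points passed in limma: 7 fell, among them Nr0b1 and Spp1, and Lefty1 rose.

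Relatives of the members by protein family had 14 tested probes for 11 of 14 listed genes. Of these probes 2 rose and 0 fell in limma, where 3.66% of all probes rose and 2.42% fell. Pou3f1 (OCT6), a POU factor of the primed epiblast, read 3.64 and 3.14 in control 1 and 2, and 4.89 and 4.95 with FBL knocked down (1.53 ± 0.25 SE, adjusted p = 0.00589). Sall2, a relative of Sall4, read −0.93 and −1.29 in control 1 and 2, and 0.50 and 0.60 in the FBL-depleted samples (1.65 ± 0.24 SE, adjusted p = 0.00294). The SOX relatives Sox4 (0.58), Sox15 (0.60) and Sox21 (0.92), named after their values were seen, did not pass (adjusted p = 0.185, 0.216 and 0.0544). Of the 14 probes 7 were lower in the knock-down, and the median change was −0.001. Among the lower ones were those of Sall1 (−0.40) and Sall3 (−0.36), also named after their values were seen, which did not pass (adjusted p = 0.385 and 0.426 in limma).

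Nanog lies in a cluster of germline and pluripotency genes on chromosome 6, where its neighbours on one side are Dppa3 and Gdf3 and on the other Slc2a3 and Foxj2. Their changes were −0.06, 0.23, −0.38 and −0.39 in that order, none of which passed in limma (adjusted p = 0.388 to 0.924). Over the 2 nearest genes on each side of all 10 members, 29 of 38 different genes were tested (Dppa2 and Dppa4 included, as neighbours of each other). Of all probes tested 3.66% rose and 2.42% fell, and of these 29 genes 3 rose and 0 fell. These were Tcf19 beside Pou5f1 (0.94), Atp9a beside Sall4 (1.76) and Adam8 near Utf1 (1.53), named after their values were seen. Among the genes whose pattern over the 4 arrays came nearest to that of Nanog, by root mean square distance of mean-centred values, were Vamp3 (distance 0.017) and Xpot (0.022). A distance of 0.1 or less was shared by 331 of the 25088 probes tested.

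Markers of other cell types were read on the same arrays. Of 10 fibroblast markers 6 were well above background on all arrays, and the probes of Col3a1, Dcn and Postn were so on none. Sums add linear signal over all probes of a list, so its brightest genes lead them. The summed fibroblast level was 5.06 and 4.47 in control 1 and 2, and 4.56 and 4.58 after knock-down. By the brightest probe, 2 of the 6 fibroblast genes tested were lower, with a median change of 0.19, and none passed. Thy1, named after its value was seen, had −0.75 at its brighter probe, and its dimmer probe passed (−1.35, adjusted p = 0.00735 in limma). The summed level of neural markers was 3.69 and 3.05 in control 1 and 2, and 3.07 and 3.27 with FBL knocked down, with 8 of 10 well above background on all arrays, and that of endoderm markers was 4.84 and 4.62 against 4.72 and 4.57, with 6 of 10. Sums were higher in the knock-down for markers of mesoderm (0.77 and 0.31 against 1.13 and 1.12, 8 of 10) and of trophectoderm (4.88 and 4.53 against 5.18 and 5.06, 8 of 10). By the brightest probe of each gene, Cxcr4 (2.09) rose and Sox7 (−2.15) fell among endoderm markers, Kdr (1.19) and Wnt3 (2.21) rose among mesoderm markers, and Krt7 (1.63) rose and Elf5 (−1.63, well above background on 3 of 4 arrays) fell among trophectoderm markers in limma. The other mesoderm markers tested did not pass, with Mesp1 at −0.98 and −0.60 by its 2 probes, Eomes at −0.36, Fgf8 at −0.29, Tbx6 at −0.09, Gsc at 0.02 and Mesp2 at 0.93, and the median over the 8 genes was −0.04. The other trophectoderm markers tested did not pass. They were Cdx2 at 0.83, Tfap2c at 0.82, Gata3 at 0.77, Hand1 at 0.71, Ascl2 at 0.13, Krt18 at −0.07, and Krt8 at −0.32 and −0.22 by its 2 probes. The median over the 9 trophectoderm genes tested was 0.71. By their brightest probes, the other endoderm markers tested did not pass. They were Gata4 at −1.85, Foxa2 at −0.32, Sparc at −0.19, Dab2 at −0.03, Gata6 at 0.04 and Sox17 at 0.80. The median over the 8 endoderm genes tested was −0.11. Second probes of Sox17 (1.86) and Cxcr4 (1.68) passed. Both were well above background in the knock-down samples alone, so they were tested only through the group where they are high. All these mesoderm, endoderm and trophectoderm genes were named after their values were seen. The part of other cells in the members' values was not tested. The streak marker T was not well above background on any array.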

How the data were processed

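RNA of 4 samples was hybridised to 1-colour Agilent arrays (design 014868), 1 per sample. Per the file headers, the deposited spot intensity was read with Agilent Feature Extraction 10.7.3.1. The deposited value table is on a log2 scale, and 99.8% of the entries per array equal, within 0.01, log2 of the scanner's processed intensity less a constant; its column medians were −3.85, −3.98, −3.94 and −3.91 and its 75th percentiles lay at 0. Its values were used by probe. Groups came from the sample titles. Flags for background came from the scanner files, and names from the RefSeq table (GRCm38.p6), which named 24375 of 41174 probes.

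Groups were compared with limma 3.58.1 in R 4.3.3 (lmFit, eBayes, two-sided) with Benjamini-Hochberg adjustment over 25088 probes, and the fit was tested on simulated data. The files hold the median, not the mean, spot signal, which normexp (offset 50) therefore used. The members and lists were chosen with earlier results of these data known. Named genes are the members, Fbl, up to 3 rising and 3 falling called genes per list (or its 2 brightest), and the 3 nearest patterns to the member with the smallest p, of which 1 is not reported here. The ratio to Pou5f1 and the neighbours were added after values were seen. The number of arrays limits the precision.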

Additional observations from a re-analysis of the deposited data

How the results depend on the processing

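Of 174 changes of the 11 member probes under alternatives, 157 kept their direction and their side of the threshold, 8 newly passed (6 for Nanog, 2 for Lin28a) and 9 reversed, none of which passed. The reversals were those of Pou5f1 with quantile normalization (0.0205) and, over fits with 1 array left out, −0.33 to 0.21, of the NM_201395 probe of Sall4 (−0.0118 to 0.46 with 1 array left out), of its other probe with the mean over a gene's probes (0.00480), of Utf1 (−0.20 to 0.36 with 1 array left out), of the first Dppa5a probe (−0.33 to 0.17 with 1 array left out, and 0.0794 with the mean over probes) and of the second (−0.0359 with the slide block, and −0.0359 to 0.51 with 1 array left out). The number of member probes called was 0, and 1 under normexp, when testing just the probes bright on all arrays, and with trend, 2 with trend and robust, and 0 to 2 with 1 array left out. The number of all probes called was 1525, against 0 with no filter (3857 at an unadjusted p under 0.05), 2628 with trend and robust, 680 with the slide block and 680 to 5321 with 1 array left out. The number of core target probes called was 8, against 3 with quantile normalization, 4 with scaling on bright probes, 0 with no filter, 0 with the slide block and 0 to 17 with 1 array left out. With the replicate number as a block, 2238 probes were called, 0 of them members, and 8 core target probes (adjusted p of 0.0677 for Nanog and 0.246 for Lin28a). Same-numbered samples did not deviate together (correlation 0.02), so the numbers were not taken to pair them. Without a knock-down array, or with the slide block, the lone sample was taken to vary like the controls, with 1 variance shared by all probes. Normexp and the replicate block also used 1 variance for all probes. The cause of these shifts was not tested. With 2 arrays per group, the standard errors of the member probes were 0.22 to 0.27, and no probe with a change smaller than 0.86 was called.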
